A study of Mus musculus with 6 samples.

Results

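Chemokines that T cells are known to make were followed in splenic regulatory T cells (Tregs) from mice with and without DJ-1. The group has 8 genes, Ccl1, Ccl3, Ccl4, Ccl5, Ccl22, Xcl1, Cxcl10 and Ccl20, out of 23152 genes named on the array. They were taken as the probe sets that the platform annotation gives to 1 of these symbols and to no other gene, which gave 53 probe sets out of 269751. No probe set was annotated to a member together with another gene.

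The comparison is between DJ-1-/- mice (KO), which lack the protein encoded by Park7, and DJ-1+/+ littermates (WT). All were males, 45 weeks old and untreated. CD4+CD25high cells were sorted from each spleen and hybridised to Affymetrix Mouse Gene 2.0 ST arrays, which gave 6 arrays, 3 per genotype. The labels name knockout animals and no deletion restricted to a cell type.

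Chemokines are small secreted proteins that guide leukocytes through G protein-coupled receptors on the migrating cell. Activated T cells and natural killer (NK) cells release Ccl3, Ccl4, Ccl5 and Xcl1, which attract monocytes, T cells and cross-presenting dendritic cells. Cxcl10 is induced by interferon and attracts cells that carry Cxcr3, Ccl22 attracts Ccr4-positive Tregs, Ccl1 is the ligand of Ccr8, and Ccl20 recruits cells with Ccr6.

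In RefSeq's gene order for GRCm38.p6, Ccl1, Ccl5, Ccl3 and Ccl4 lie on chromosome 11, with Ccl3 and Ccl4 next to each other and Ccl5 beside Ccl9. Xcl1 and Ccl20 lie on chromosome 1, Cxcl10 on chromosome 5 and Ccl22 on chromosome 8, next to Cx3cl1. The RefSeq promoter table (GRCm38.p6) held 6 of the 8 members, without Ccl4 and Ccl5. The 250 bases before the start of 3 genes whose values were lower in KO arrays are shown, to set the motifs of Cxcl10 beside Ccl3 and Xcl1. Capitals mark matches to any of 4 motifs, read 5′ to 3′ on the gene's strand.

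Cxcl10, chr5:92348890-92349139 (- strand): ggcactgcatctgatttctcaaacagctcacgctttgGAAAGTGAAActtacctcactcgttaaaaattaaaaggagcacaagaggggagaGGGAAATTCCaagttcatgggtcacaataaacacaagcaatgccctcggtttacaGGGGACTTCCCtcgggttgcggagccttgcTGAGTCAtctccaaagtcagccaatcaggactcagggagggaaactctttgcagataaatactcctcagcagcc

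Ccl3, chr11:83649379-83649628 (- strand): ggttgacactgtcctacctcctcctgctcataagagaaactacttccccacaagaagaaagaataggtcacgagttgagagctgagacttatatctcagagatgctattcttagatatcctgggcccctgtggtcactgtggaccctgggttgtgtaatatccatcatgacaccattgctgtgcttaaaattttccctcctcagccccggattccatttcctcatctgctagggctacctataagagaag

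Xcl1, chr1:164935523-164935772 (- strand): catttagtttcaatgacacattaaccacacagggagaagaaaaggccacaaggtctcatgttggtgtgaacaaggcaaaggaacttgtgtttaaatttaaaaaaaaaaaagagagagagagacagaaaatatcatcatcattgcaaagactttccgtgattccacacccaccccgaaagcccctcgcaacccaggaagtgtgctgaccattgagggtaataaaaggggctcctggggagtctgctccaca

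The motifs were the NF-kB consensus, the core of the interferon-stimulated response element (GAAA, 2 bases of any kind, GAAA), the AP-1 site (TGANTCA) and the TATA box (TATAAA), each searched on both strands. The Cxcl10 stretch held an interferon response core 213 to 204 bases before the start, 3 NF-kB matches of which 2 overlap each other by all but 1 base, and an AP-1 match. The Ccl3 and Xcl1 stretches held none of the 4. Among the other members, Ccl1 held a pair of overlapping NF-kB matches, Ccl20 held 1 and Ccl22 none. Of all 32851 promoter stretches of this length, 7.25% held an NF-kB match, 2.98% the interferon response core, 6.75% the AP-1 site and 12.4% the TATA box. A match, or the lack of one, describes the exact letters searched and nothing more.

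The arrays were first checked against their labels. Park7 differed by -3.57 (KO minus WT, log2 scale), with a limma adjusted p of 2.06e-05. The Treg markers Foxp3, Il2ra, Ctla4, Ikzf2, Cd3e and Cd4 all passed the filter on dim genes, and Foxp3 lay between 12.64 and 12.75 in all 6 arrays. Foxp3 was higher in every KO array than in any WT array (0.06), as were 847 of 13891 tested genes. Ikzf2 (-0.20) and Cd3e (-0.19) were lower in every KO array, as were 11.3% of tested genes. Il2ra (-0.001), Ctla4 (-0.005) and Cd4 (-0.12) overlapped, and none of the 6 markers passed in limma. Median intensities ran from 88.6 to 100.2, and KO replicate 1 had both the dimmest median and, on average, the weakest correlation with the rest (0.951 against 0.957 to 0.964). Differences of tested members and receptors below are therefore also given without it.

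Gene values are medians over a gene's probe sets of log2(intensity + 16), and differences are KO minus WT on that scale, so they understate the change of dim genes. Genes with a mean below 5.90, the 40th percentile, were not tested. Of the 8 members 7 were tested, and Ccl22 lay below that floor. Ccl4 passed because of its WT arrays, its KO mean of 5.89 being under the floor, and the WT mean of Ccl1 was 5.91.

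Ccl3, Ccl5 and Cxcl10 were 1.92 to 2.04 times as high in WT as in KO arrays, and each was lower in every KO array than in any WT array. That made 3 of 7 tested members without overlap, where 11.3% of all tested genes had every KO array below every WT array. None of the 7 tested members passed the adjusted threshold of 0.05 over all 13891 genes in limma, where 0.266% of genes passed as lower in KO and 0.0072% as higher. At an unadjusted p of 0.05, 4 of the 7 were lower in KO (Ccl3, Ccl5, Cxcl10 and Xcl1), where 7.67% of all genes were, and 0 were higher. An unmoderated test passed 0 of all 13891 genes after adjustment, so that it says nothing about the members. The median difference of the 7 was -0.55, beside -0.05 over all tested genes, and 6 of the 7 differences were negative, against 59.7% of all genes.

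Cxcl10, the interferon-induced ligand of Cxcr3, had the smallest p of the group. Its WT values were 8.85, 8.66 and 8.29, and its KO values were 7.71, 7.89 and 7.39, both in the order of the replicate numbers, as below. All KO arrays lay below all WT arrays, and KO replicate 3 was the lowest. The means were 8.60 ± 0.28 and 7.66 ± 0.25 (SD, n = 3 each), a difference of -0.94 (SE 0.19, 95% confidence interval -1.36 to -0.51, limma adjusted p = 0.110), or 1.92-fold. Without KO replicate 1 the difference was -0.96 (limma adjusted p = 0.137).

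Ccl3, the chemokine MIP-1α that attracts monocytes and T cells, for example through Ccr1, had the largest difference. It measured 7.13, 7.94 and 7.01 in WT arrays and 6.08, 6.69 and 6.22 in KO arrays. The groups did not overlap, although WT replicate 2 stood well above the other WT arrays. The means were 7.36 ± 0.51 and 6.33 ± 0.32 (SD, n = 3 each), which differed by -1.03 (SE 0.26, 95% confidence interval -1.604 to -0.456, limma adjusted p = 0.190), or 2.04-fold. The difference was -0.91 without KO replicate 1, and -0.74 without WT replicate 2.

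Ccl5, or RANTES, is stored and released by memory and cytotoxic T cells and binds Ccr1 and Ccr3, among others. Its WT values were 10.81, 10.87 and 10.21, and its KO values were 9.10, 9.99 and 9.84. KO replicate 1 was the lowest array, and WT replicate 3 was the WT array nearest to the KO arrays. The means of 10.63 ± 0.37 and 9.65 ± 0.48 (SD, n = 3 each) differed by -0.98 (SE 0.26, 95% confidence interval -1.56 to -0.41, limma adjusted p = 0.214), or 1.98-fold. Without KO replicate 1 the difference was -0.71 (limma adjusted p = 0.238).

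Xcl1, lymphotactin, attracts dendritic cells that carry Xcr1. It was at 8.76, 8.83 and 8.51 in WT arrays and at 7.73, 8.20 and 8.52 in KO arrays. KO replicate 3 lay within the WT range, so the groups overlapped. The difference of -0.55 (SE 0.20, 95% confidence interval -1.004 to -0.090, limma adjusted p = 0.380) was -0.34 without KO replicate 1.

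Ccl4, MIP-1β, is the neighbour of Ccl3 and likewise attracts monocytes and T cells. Its values of 5.80, 6.59 and 6.41 in WT and 5.97, 6.05 and 5.65 in KO overlapped. The difference was -0.38 (95% confidence interval -0.85 to 0.10, limma adjusted p = 0.580) and ran from -0.61 to -0.21 as each array was left out (-0.42 without KO replicate 1).

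Ccl1, Ccl22 and Ccl20 lay at or near the floor. Ccl1, the ligand of Ccr8, was at 5.996, 5.82 and 5.90 in WT and 6.45, 6.44 and 5.67 in KO, with the lowest and both highest values in KO arrays (0.28, 95% confidence interval -0.19 to 0.76, limma adjusted p = 0.675, and 0.15 without KO replicate 1). Ccl20, the ligand of Ccr6, was at 6.18, 6.25 and 6.23 in WT and 6.02, 5.97 and 6.52 in KO (-0.05, 95% confidence interval -0.43 to 0.33, limma adjusted p = 0.942, and 0.03 without KO replicate 1). Ccl22, the ligand of Ccr4, was untested at 5.38, 5.51 and 5.37 in WT and 5.15, 5.59 and 5.36 in KO. The groups of all 3 genes overlapped, and the KO arrays were spread more widely than the WT arrays.

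**Figure D1:**
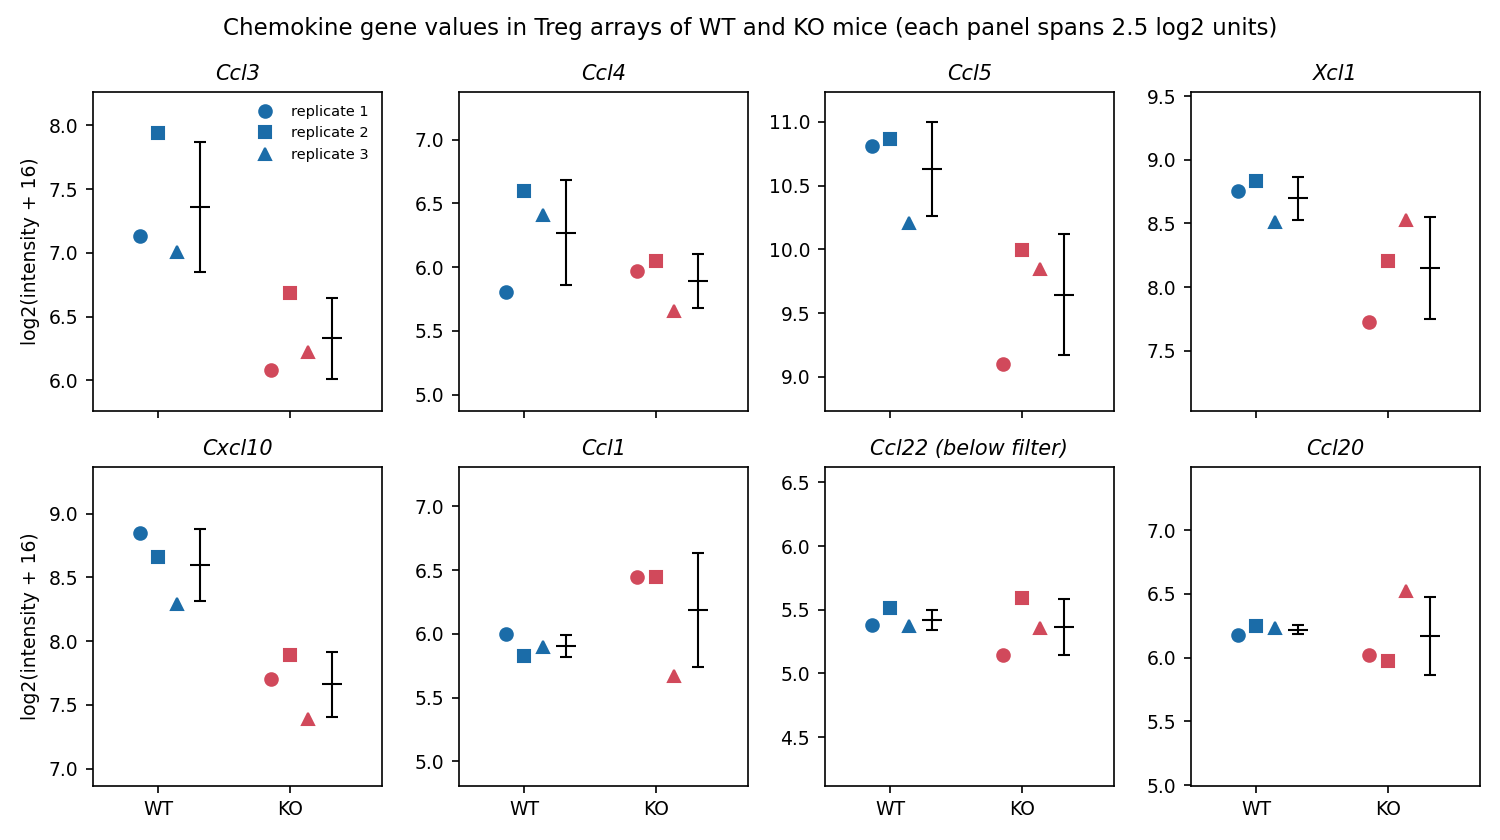
Gene values on the log2(intensity + 16) scale for the 8 chemokines in WT (blue) and KO (red) arrays, with the replicate shown by the marker and the mean ± SD (n = 3) in black. Each panel spans the same number of log2 units, and the KO arrays lie below the WT arrays for Ccl3, Ccl5 and Cxcl10 only.

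The 7 tested members did not vary as one group across the 6 arrays. Pearson's r between pairs of members, which share the genotype contrast and the array, was 0.89 for Ccl3 and Ccl5, 0.93 for Ccl5 and Xcl1, 0.85 for Ccl3 and Cxcl10, and 0.84 for Ccl5 and Cxcl10. Ccl4 correlated at 0.74 with Ccl3 but at 0.39 with Ccl5. Ccl1 ran opposite to Ccl20 (-0.93) and to Xcl1 (-0.79). KO arrays held the lowest value of every tested member, KO replicate 1 for 3 of them, KO replicate 3 for 3 and KO replicate 2 for 1.

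The probe sets show how far the difference was shared within each gene. None of the 53 passed an adjusted p of 0.05 over all 269751 probe sets in limma, where 0.00111% passed, and the smallest adjusted p among them was 0.425. Probe sets with a mean intensity of at least 64 numbered 31, and 14 of them had every KO array below every WT array, where 8.85% of all such probe sets did. Probe sets of 1 gene are not independent. The 14 were 3 each of Ccl3, Ccl5, Cxcl10 and Xcl1 and 2 of Ccl1, and 1 Ccl1 probe set had every KO array above every WT array (7.1% of all such probe sets).

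All 4 probe sets of Ccl5 were bright. The brightest, 17266948, read 2599.7, 2573.6 and 2125.6 intensity units in WT and 1155.5, 1640.1 and 1499.5 in KO (-0.77 on the log2 scale, limma adjusted p = 0.529). Probe set 17266947 differed by -1.12, with readings from 1323.6 to 1915.2 in WT and from 430.4 to 1141.8 in KO. Its KO readings were the more scattered, and the dimmest Ccl5 probe set, 17266951, differed by -0.15. For Ccl3 all 5 probe sets were lower in KO, from -1.17 to -0.40. Its brightest, 17266970, read 321.6, 477.0 and 272.6 in WT and 145.9, 173.8 and 181.3 in KO (-0.995 on the log2 scale, limma adjusted p = 0.527).

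All 6 Cxcl10 probe sets were lower in KO too, from -1.32 to -0.49. Probe set 17449721 had the largest difference among its bright probe sets, with 582.3, 525.9 and 448.7 in WT and 174.2, 280.8 and 155.0 in KO (limma adjusted p = 0.482). The 4 Xcl1 probe sets were all lower, within the narrow range of -0.59 to -0.45. The brightest Xcl1 probe set, 17229188, read 561.9, 548.9 and 462.2 in WT and 235.0, 406.2 and 424.1 in KO, without overlap, unlike the gene's median. All 5 Ccl4 probe sets were lower in KO, from -0.46 to -0.05, each with overlap. The brightest of Ccl4, 17254285, read 323.9, 284.1 and 344.8 in WT and 295.4, 249.9 and 321.0 in KO (-0.13).

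The probe sets of Ccl1 disagreed with each other. Of 16, 8 were lower and 8 higher in KO, and 8 had a mean intensity under 64. The brightest, 17266756, was lower in KO, at 355.9, 365.7 and 403.2 in WT against 170.0, 322.7 and 213.8 in KO (-0.68, 95% confidence interval -1.27 to -0.09, limma adjusted p = 0.620). The next brightest, 17266760, was likewise lower, at 332.7, 341.9 and 325.7 in WT and 170.6, 282.9 and 143.5 in KO. Probe set 17266762 was higher, at 48.2, 61.8 and 2.07 in WT and 86.9, 116.8 and 127.1 in KO (1.48). The gene's median of 0.28 comes from dim and bright probe sets together, and with bright probe sets alone it was -0.07, the opposite sign. No direction can be given for Ccl1.

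**Figure D2:**
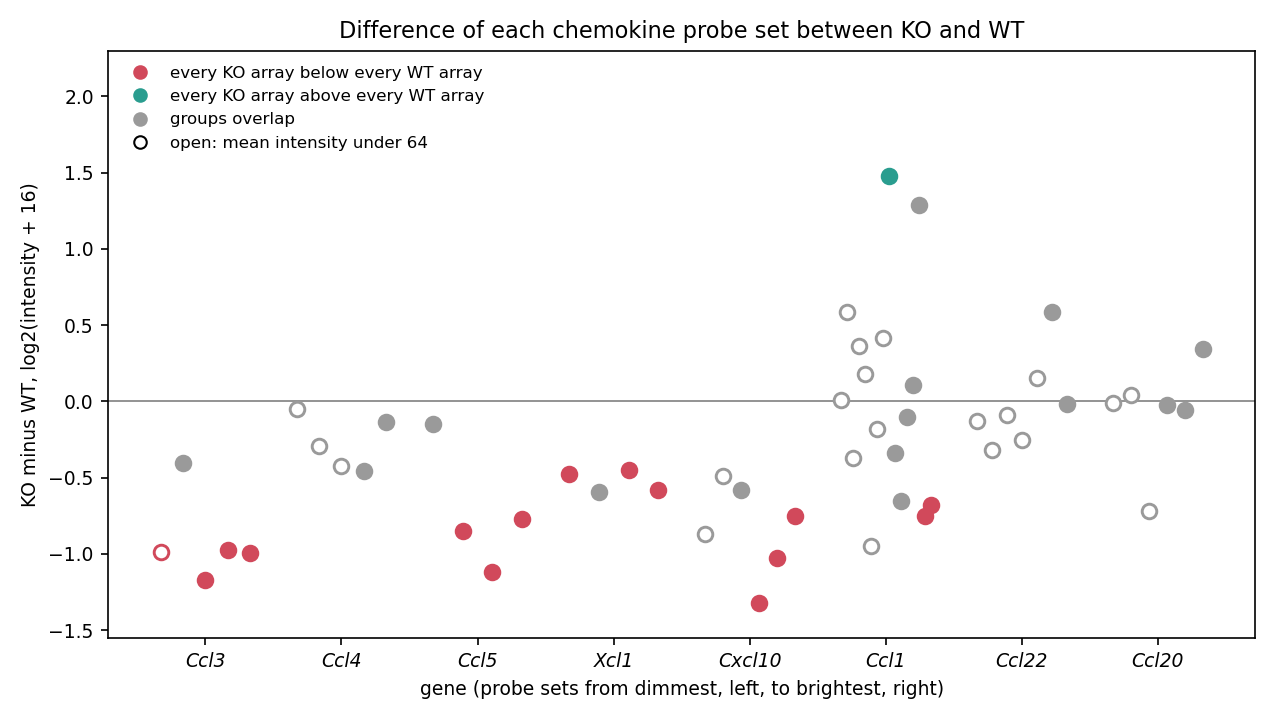
KO minus WT difference of each of the 53 probe sets on the log2(intensity + 16) scale, ordered within a gene from dimmest to brightest, with open circles for a mean intensity under 64. The probe sets of Ccl3, Ccl4, Ccl5, Xcl1 and Cxcl10 all lie below 0, and those of Ccl1, Ccl20 and Ccl22 lie on both sides.

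The receptors of these chemokines analysed here were Ccr8, Ccr1, Ccr3, Ccr4, Xcr1, Cxcr3 and Ccr6. Of these 7, Ccr1 was below the floor and 6 were tested. A further listed receptor was not analysed here. None of the 6 passed in limma, and all 6 differences were negative, against 59.7% of all genes, with a median of -0.55. Xcr1 (-0.02) was less negative than the median of all tested genes (-0.05), and Ccr6 (-0.07) was near that median. At an unadjusted p of 0.05, 3 of the 6 were lower, where 7.67% of all genes were, and 0 were higher.

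Cxcr3, the receptor of Cxcl10 and a marker of type 1 effector Tregs, was the nearest to the threshold. Its values were 9.95, 9.93 and 9.63 in WT and 8.82, 9.10 and 8.90 in KO (-0.90, SE 0.15, limma adjusted p = 0.0528). No KO array reached the WT range, the difference was -0.84 without KO replicate 1, and the adjusted p ran from 0.0775 to 0.279 as each array was left out and from 0.0117 to 0.293 over the other settings. Ccr8, the receptor of Ccl1, was at 11.61, 11.67 and 11.15 in WT and 10.67, 10.98 and 10.72 in KO, again without overlap (-0.69, limma adjusted p = 0.205, and -0.63 without KO replicate 1). Ccr4, the receptor of Ccl22, differed by -0.61 (limma adjusted p = 0.464) and by -0.26 without KO replicate 1, which stood at 8.24 against 9.09 to 9.70 in the other 5 arrays.

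Ccr3, a receptor of Ccl5, differed by -0.49 (limma adjusted p = 0.469) and by -0.24 without KO replicate 1. Ccr6, the receptor of Ccl20, differed by -0.07 (95% confidence interval -0.46 to 0.31, and -0.03 without KO replicate 1). Xcr1, the receptor of Xcl1, which marks cross-presenting dendritic cells, differed by -0.02 (95% confidence interval -0.32 to 0.27, and -0.04 without KO replicate 1), with a positive sign under quantile normalization (0.012) and median centring (0.012). So Cxcl10 and Cxcr3 were both lower without overlap. No direction can be given for Ccl1, so it could not be compared with Ccr8 in this way.

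Of 30 other chemokine genes 28 had a probe set of their own and 12 were tested. None passed in limma, 5 differences were negative and 7 positive, and the median was 0.01. At an unadjusted p of 0.05, 1 was lower (Cxcl13), a share near the 7.67% of all genes, and 0 were higher. The lowest by p were Cxcl13, the attractant of Cxcr5-positive cells (-0.37, limma adjusted p = 0.391), Cxcl2 (-0.23, limma adjusted p = 0.610) and Cx3cl1 (-0.13, limma adjusted p = 0.782). The highest by p were Ccl24 (0.35), Cxcl16 (0.23) and Ccl28 (0.16). Whether the T cell chemokines differ from the other chemokines as a group was not tested.

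**Figure D3:**
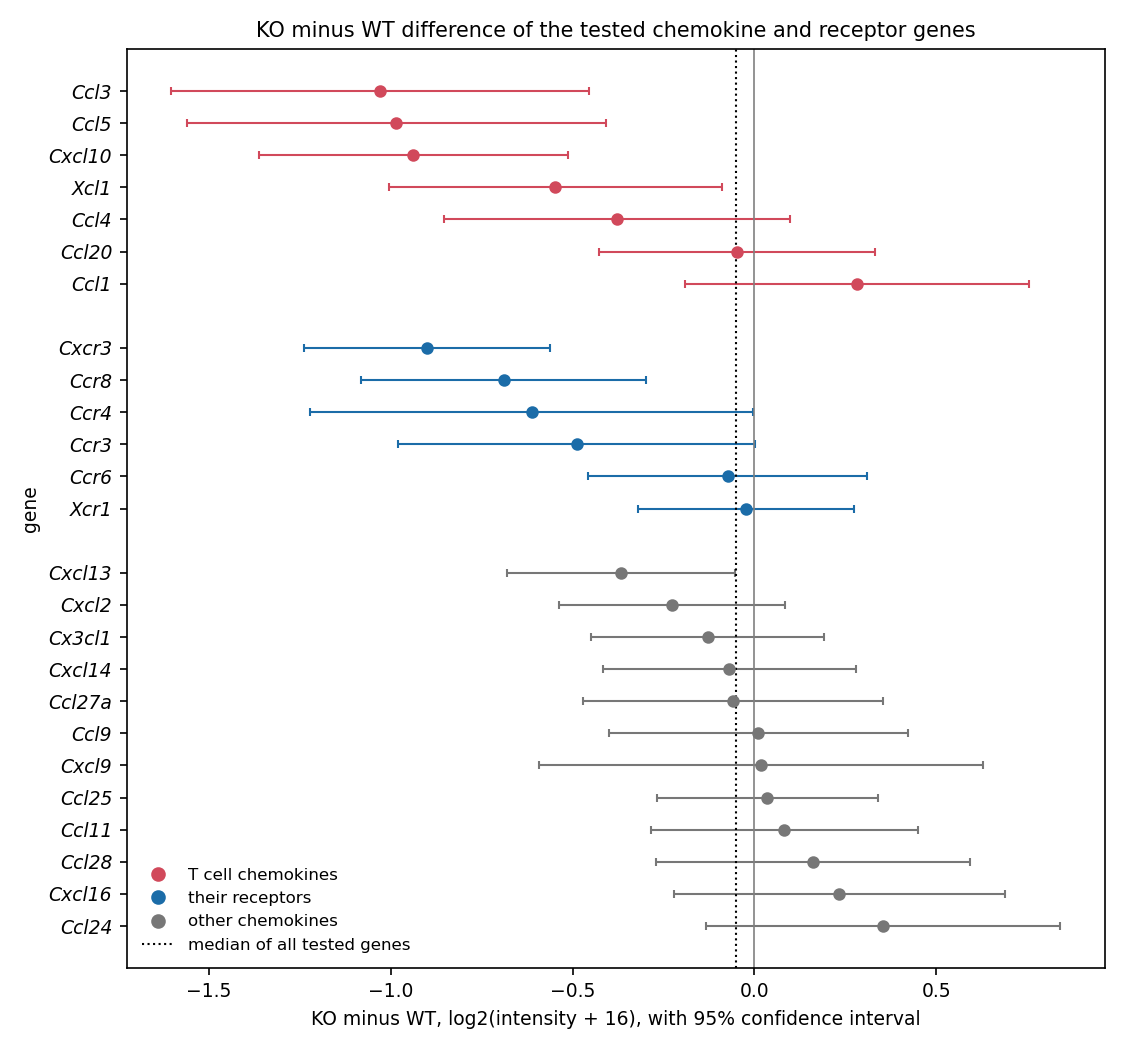
KO minus WT differences with 95% confidence intervals from limma for the tested T cell chemokines (red), their receptors (blue) and the other tested chemokines (grey), with the median of all tested genes as a dotted line. The intervals of Ccl3, Ccl5, Cxcl10, Xcl1, Cxcr3, Ccr8 and, narrowly, Cxcl13 lie wholly below that line.

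Genes known to be expressed with these chemokines were given alongside. Of the cytotoxic genes, Nkg7, a granule protein, differed by -0.57 without overlap (limma adjusted p = 0.362) and granzyme B (Gzmb) by -0.45 (limma adjusted p = 0.528). Perforin (Prf1) differed by -0.01 and interferon gamma (Ifng) by -0.07. Of the interferon-induced companions of Cxcl10, the guanylate-binding Gbp2 differed by -0.59 (limma adjusted p = 0.281) and the transcription factor Irf1 by -0.22 (limma adjusted p = 0.590), both without overlap. Cxcl9, a further Cxcr3 ligand, differed by 0.02, at 7.23, 7.28 and 6.35 in WT and 7.15, 7.24 and 6.53 in KO.

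Whether Cxcl9 and Cxcl10 differed in their response was not tested. Among transcription factors known for these genes, Irf4 differed by -0.41 without overlap, Tbx21 by -0.34, Nfkb1 by -0.08 and Eomes by 0.03. None of these 11 companion genes passed in limma. At an unadjusted p of 0.05, 3 of the 11 were lower, where 7.67% of all genes were, and 4 had every KO array below every WT array, where 11.3% did.

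Named genes with the most similar values to a member over the 6 arrays were ranked by Pearson's r among 11787 genes. For Ccl5 they were Frmd5 (0.998), the glutathione peroxidase Gpx4 (0.994) and the interferon-induced Ifi44 (0.991). For Cxcl10 they were Sostdc1 (0.992), Aplp1 (0.992) and Six5 (0.989), and Sostdc1 differed by -1.19. For Ccl3 they were Fam192a (0.996), the heparanase Hpse (0.992) and Tbc1d24 (0.990). For Xcl1 they were Ston1, Otub1 and D4Ertd22e (0.994, 0.993 and 0.991), and for Ccl4 Phkg1, Slc19a1 and Mdm1 (0.989, 0.985 and 0.981). Near the floor, Ccl1 was most like Tgm5, Klk12 and Tuba4a (0.995, 0.984 and 0.981), and Ccl20 most like Myst4, Il18bp and Tubgcp3 (0.980, 0.979 and 0.977). With 6 arrays and this many genes, values of this size describe the ranking only.

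Other cells of the spleen make some of the same chemokines, among them NK cells, CD8 T cells, macrophages and dendritic cells. In sorted cells fewer cells of a type and less RNA per cell cannot be told apart. The summed intensity of 7 of 9 listed NK markers was 1853 to 2478 in WT and 1410 to 1827 in KO, and Nkg7 made up most of it. Of the 6 tested NK markers 3 had negative and 3 positive differences, with a median of 0.01, among them Ncr1 (-0.85), Klrb1c (0.28), Klrk1 (0.18) and Eomes (0.03). Both CD8 markers were measured, and their sum was 458 to 505 in WT and 361 to 436 in KO. Most of that sum was Cd8b1 (-0.30), with means of 8.76 in WT and 8.46 in KO. Cd8a lay near the floor, with means of 6.26 in WT and 6.29 in KO, and overlapped between genotypes (0.03). For 10 of 11 macrophage and monocyte markers the sum was 739 to 1094 in WT and 583 to 724 in KO. All 6 tested ones had negative differences, where 59.7% of all genes did, with a median of -0.41. At an unadjusted p of 0.05 in limma, 3 of the 6 were lower (Csf1r, C1qc and Vcam1), where 7.67% of all genes were. Csf1r passed the filter because of its WT arrays, its KO mean of 5.84 being under the floor of 5.90. The KO mean of C1qc was 5.91, at the floor, so these counts rest in part on genes that were measurable in WT arrays only. Fcgr1, untested, was higher in every KO array (0.35). The lowest difference was that of Vcam1, an adhesion molecule (-1.15, limma adjusted p = 0.0343). Vcam1 did not pass when any 1 array was left out, with limma adjusted p-values of 0.0530 to 0.145.

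All 8 dendritic cell markers were measured, with sums of 600.2 to 672 in WT and 510 to 583 in KO. Bst2 was the brightest of them (-0.35). The 4 tested ones all had negative differences, where 59.7% of all genes did. Their median was -0.15, and 0 had an unadjusted p under 0.05 in limma. Batf3 (-0.005) and Xcr1 (-0.02) were less negative than the median of all tested genes (-0.05), and Zbtb46 differed by -0.28. The sums of the NK, CD8, macrophage and dendritic cell markers did not overlap between genotypes. Neither did that of the 6 Treg markers (29826 to 30034 in WT and 27758 to 29076 in KO). Of all single genes tested, 11.3% had every KO array below every WT array, and the sums were not further normalized. The sums of 5 of 6 B cell markers (963 to 1343 and 964 to 1119) and of 6 neutrophil markers (300.1 to 323 and 296 to 341) overlapped. Gzma, Lyz2, Adgre1 (Emr1 on the array), Fcgr1, Itgam, Itgax, Flt3, Siglech, Clec9a, Ms4a1, Pax5, S100a8, S100a9 and Ly6g lay below the floor. The part of these cells in the chemokine values was not tested.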

How the data were processed

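Per the labels, the authors deposited linear intensities per exon-level probe set, summarised with PLIER in Affymetrix Expression Console 1.4 (submitters' processing notes). Background correction and normalization between arrays are not given in the sources used here. No depth applies to arrays, and their number (3 per genotype, 1 mouse each) limits the precision.

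Intensities were taken as log2(intensity + 16) without further normalization. Probe sets that the platform annotation gives to 1 symbol were combined per gene by their median. Genes with a mean under the 40th percentile (9261 of 23152) were not tested. Genotypes were tested two-sided by eBayes in limma 3.58.1 (R 4.3.3, Benjamini-Hochberg over 13891 genes or 269751 probe sets, threshold 0.05). All adjusted p-values are limma's. The fit was tested on simulated data.

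Members and lists were chosen with earlier results of these data known. The rule named all members and receptors, companion and marker genes, the 3 other chemokines with the smallest p per direction, the brightest and most different bright probe set per member, and the 3 genes of most similar values per member. The Cxcl10, Ccl3 and Xcl1 promoters and probe sets 17266951 and 17266760 were chosen after values were seen. Alternatives were other pseudocounts, filters, probe-set summaries, normalizations and variance models, a replicate block and leaving out each array.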

Additional observations from a re-analysis of the deposited data

How the results depend on the processing

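The number of arrays, 3 per genotype, limits these calls. No member passed in 17 of 19 alternatives. These include the unmoderated test, which passed 0 of all genes. They also include the fits without 1 array. Over all genes those passed 4, 4 and 7 without WT replicates 1, 2 and 3, and 37, 31 and 11 without KO replicates 1, 2 and 3. The main fit passed 38, so not passing where few genes pass says little about the members. With array weights, which raised the count over all genes from 38 to 125, 1 passed (Cxcl10, limma adjusted p = 0.0222), and with the replicate number as a block 2 passed (Ccl3, limma adjusted p = 0.0297, and Cxcl10, 0.0375). Whether the numbers pair the mice cannot be decided from 3 arrays per genotype. Deviations of same-numbered arrays from their group means correlated at 0.15, 0.17 and 0.01, and those of other pairs at -0.19 to 0.09. WT replicates 1 and 2 were closest to the KO array of the same number, and WT replicate 3 to KO replicate 1 (0.03). With the block the count over all genes was 67. Cxcr3 was the 1 receptor that passed with a pseudocount of 64, a 60th percentile filter, averaged probe sets, quantile normalization, median centring, the trend and robust prior, array weights, the block, or an adjusted p of 0.10. No other chemokine passed in any of the 19 alternatives, and no member probe set in any of 16.

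Ccl3, Ccl4, Ccl5, Xcl1 and Cxcl10 stayed lower in KO in every alternative that tested them, with ranges of -1.21 to -0.74, -0.61 to -0.21, -1.195 to -0.712, -0.73 to -0.34 and -1.09 to -0.80 as each array was left out. The members' median was -0.94 with the filter at the 60th percentile, which kept 3 members. Signs turned for Ccl1 with bright probe sets (-0.072), for Ccl20 with array weights (0.055), and for Xcr1 with averaged probe sets (0.11), bright ones (0.081), quantile normalization (0.012) and median centring (0.012). Leaving out 1 array turned Ccl20 (-0.22 to 0.053), Xcr1 (-0.064 to 0.042) and Ccr6 (-0.22 to 0.024). The cause of these changes was not tested.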
